A study of Mus musculus with 2 samples.

Results

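miR-192, miR-194 and miR-215 form a family of epithelial microRNAs (miRs), and their abundance was examined in mouse sperm. Members were found by name, with both arms of each hairpin, which gave 7 of the 1886 mature miR entries in the tables. The study asked whether RNA in sperm carries effects of environmental enrichment to the offspring, and first measured which miRs sperm of unexposed mice contain. Small RNA was sequenced from sperm of C57BL/6J wild-type mice, aged 3 months and labelled naive, in 2 libraries that the study describes as independent biological replicates. The names of the deposited tables carry the string POSTTREAT, and this mismatch with the label was not resolved. How many mice gave each library is not given in the sources used here. Sperm swam out of the dissected epididymis, and the pellet was treated with a detergent buffer to remove cells of the surrounding tissue.

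A miR is cut from a hairpin precursor, which can release a mature strand from its 5p arm and from its 3p arm, and usually 1 of them is kept in the silencing complex. The strand pairs with target mRNAs mainly through its seed, bases 2 to 8 from the 5′ end, so that miRs with the same seed can share targets. miR-192, miR-194 and miR-215 are known from the epithelia of intestine, liver and kidney, where the factors HNF1 and HNF4 drive their genes, and they are also induced by the tumour suppressor p53.

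The sequences show which entries can act alike and which can be told apart by sequencing. All 7 entries had a mature sequence in RefSeq for GRCm38.p6. The 5p arms are printed first, 5′ to 3′, with the seed in capitals.
miR-192-5p: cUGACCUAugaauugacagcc
miR-215-5p: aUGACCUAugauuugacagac
miR-194-5p: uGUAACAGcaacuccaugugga
miR-192-5p and miR-215-5p share the seed UGACCUA, while miR-194-5p has another. Counted from the 5′ end, with the base of miR-192-5p first, miR-215-5p differs by C1A, A12U and C20A, so that 85.7% of the 21 positions are the same. A read of full length mapped without mismatch can therefore belong to only 1 of them. The 3p arms have a seed of their own in each case.
miR-192-3p: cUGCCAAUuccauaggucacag
miR-194-1-3p: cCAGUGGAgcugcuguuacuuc
miR-194-2-3p: cCAGUGGGgcugcuguuaucug
miR-215-3p: uCUGUCAUucuguaggccaau
Among the 1613 listed mature names with a RefSeq sequence, only miR-7055-5p and miR-6926-5p share a seed with a member from outside the family, that of miR-194-2-3p, and both had no read in either library. The seeds of the 3 5p arms occur in no other listed name with a sequence.

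The family has 4 hairpins in 2 neighbouring pairs, all on the plus strand of GRCm38, the build that the labels name. The Mir194-2 hairpin lies at chr19:6264643-6264728 and the Mir192 hairpin at chr19:6264844-6264932, with 115 bases between them. In the GENCODE M21 annotation both are intergenic, between the protein-coding gene Atg2a, which ends 2307 bases upstream of Mir194-2, and the long non-coding RNA Gm14963 on the opposite strand, whose nearest end lies 3862 bases downstream of Mir192. The other pair is Mir194-1 at chr1:185313319-185313385 and Mir215 at chr1:185313581-185313692, with 195 bases between them. Both lie in an intron of Iars2, a gene for a mitochondrial tRNA synthetase on the opposite strand. On their own strand, Mir194-1 falls in the intron between exons 1 and 2 of the non-coding antisense gene 2010103J01Rik, and Mir215 within exon 2. The hairpins are shown because the reads were unequally divided among them, with the mature arms in capitals.
Mir194-2: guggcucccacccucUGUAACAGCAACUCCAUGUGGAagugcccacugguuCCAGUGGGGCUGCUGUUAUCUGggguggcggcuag
Mir192: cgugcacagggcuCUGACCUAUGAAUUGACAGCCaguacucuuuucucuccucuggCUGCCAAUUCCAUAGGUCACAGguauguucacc
Mir194-1: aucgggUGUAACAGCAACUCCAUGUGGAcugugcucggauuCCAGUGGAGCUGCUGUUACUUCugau
Mir215: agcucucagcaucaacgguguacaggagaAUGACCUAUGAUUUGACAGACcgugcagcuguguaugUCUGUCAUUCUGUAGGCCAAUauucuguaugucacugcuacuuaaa
miR-194-5p has the same sequence in Mir194-1 and Mir194-2 and a single entry in the tables, so its reads cannot be divided between chromosomes 1 and 19. The 3p arms of these hairpins differ by A8G, C19U, U20C and C22G and can be told apart.

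**Figure D1:**
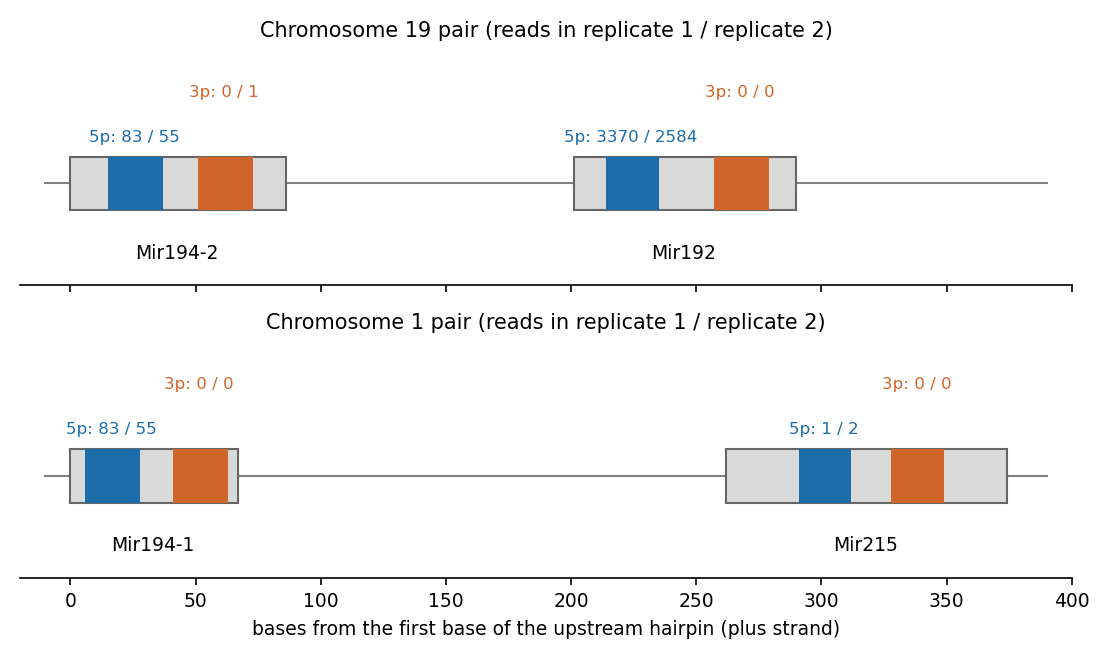
Map of the 4 hairpins, to scale, as distance in bases from the first base of the upstream hairpin. Grey boxes are hairpins, blue boxes 5p arms and orange boxes 3p arms, each with its reads in replicate 1 and replicate 2. The 83 and 55 reads of miR-194-5p are shown at both of its hairpins because they cannot be divided. Nearly all other reads are on the 5p arm of Mir192.

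Replicate 1 held 4049599 miR reads and replicate 2 held 5648067. Abundance is given as reads per 1000000 miR reads of the same library (CPM), and 3 reads then correspond to 0.741 and 0.531 CPM. All 7 entries are 21 or 22 bases long, so CPM was compared between entries without division by length. CPM is a share of reads, and how closely it follows the amount of each miR was not tested. Folds and shares between different miRs are therefore those of reads. Reads from 15 nucleotides were kept, so a counted read need not cover a mature miR whole. Intervals are Wilson 95% intervals and cover counting error only. With 2 libraries of 1 condition, no comparison of conditions was tested.

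The reads of the family in sperm were almost entirely those of miR-192-5p. This arm, the strand of miR-192 known to act in epithelia, was counted 3370 times in replicate 1 and 2584 times in replicate 2. Its abundance was 832 CPM (805 to 861) in replicate 1 and 458 CPM (440.2 to 475) in replicate 2, a mean of 645 ± 265 CPM (SD, n = 2 libraries). It ranked 36th by mean CPM among the 378 entries with a read in both libraries, above 90.5% of them. miR-192-5p made up 97.6% of the family's reads in replicate 1 (97.0% to 98.0%) and 97.8% in replicate 2 (97.2% to 98.3%). These shares differed by less than the counting error, whereas the CPM intervals of miR-192-5p in the 2 libraries do not overlap.

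miR-194-5p, the partner of miR-192 on chromosome 19 and of miR-215 on chromosome 1, was far less abundant. Replicate 1 held 83 of its reads, which is 20.5 CPM (16.5 to 25.4), and replicate 2 held 55, which is 9.74 CPM (7.48 to 12.7). The mean was 15.1 ± 7.61 CPM (SD, n = 2), rank 141 of 378. miR-192-5p was 40.6 times as abundant as miR-194-5p in replicate 1 and 47.0 times in replicate 2, a mean ratio of 43.8 ± 4.51 (SD, n = 2). Of the reads on these 2 arms, miR-194-5p took 2.40% (1.94% to 2.97%) in replicate 1 and 2.08% (1.60% to 2.70%) in replicate 2, and these intervals overlap. Since 2 hairpins contribute to miR-194-5p, its share from the hairpin next to Mir192 can only be equal or smaller.

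miR-215-5p, which shares its seed with miR-192-5p, was at the limit of detection. It had 1 read in replicate 1 and 2 reads in replicate 2, both under the 3 reads taken as the floor, and no fold was formed from them. Of the reads that carry the seed UGACCUA on a 5p arm, miR-215-5p made up 3 of 5957 in both libraries together, or 0.0504% (0.0171% to 0.148%). The other 5954 were counted on miR-192-5p, whose hairpin is on chromosome 19. The reads counted on miR-194-5p were more than those on its neighbour miR-215-5p in both libraries, and how many of them came from chromosome 1 is unknown.

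**Figure D2:**
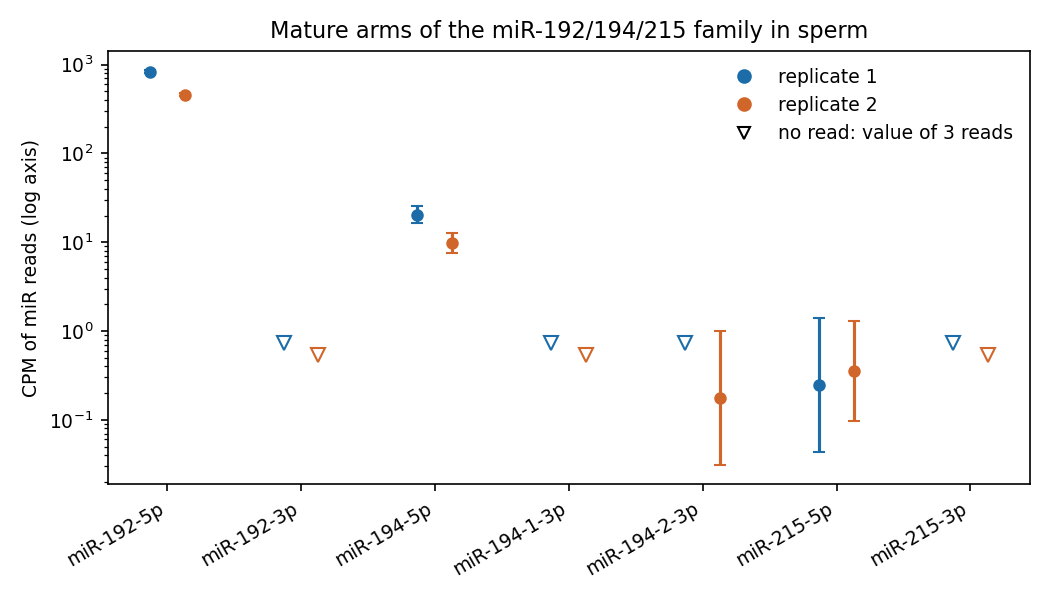
Abundance of the 7 mature arms in CPM of miR reads, on a log axis, with replicate 1 in blue and replicate 2 in orange. Points carry Wilson 95% intervals, and open triangles mark arms with no read at the value of 3 reads. miR-192-5p lies at 832 and 458 CPM, miR-194-5p at 20.5 and 9.74 CPM, and every other arm under 1 CPM.

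The 3p arms gave 1 read in all. miR-192-3p, miR-194-1-3p and miR-215-3p had no read in either library, and miR-194-2-3p had no read in replicate 1 and 1 read in replicate 2. For miR-192 this was 0 of 5954 reads on the 3p arm, where 3 reads would be a share of 0.0504% and the Wilson upper limit is 0.0645%. For miR-194 it was 1 of 139 reads, or 0.719% (0.127% to 3.96%), so a 3p share of a few percent is not excluded by the depth. An empty minor arm was not particular to miR-192. Of 58 hairpins with both arms listed and a total of 1000 or more reads over both libraries, 13 had no read on the minor arm, and the median share of the minor arm was 0.132%. Of the 17 other hairpins whose reads lay within 2-fold of those of miR-192, 4 had no read on the minor arm, and the median was 11 reads with a highest value of 4939.

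The imbalance between miR-192-5p and miR-194-5p was set beside other neighbouring hairpins, which were not matched to the 115 bases between Mir194-2 and Mir192. In the RefSeq annotation 37 pairs of neighbouring hairpins on 1 strand had fewer than 1000 bases between them, different leading arms, and a total of 10 or more reads on each leading arm. The fold between the mean CPM of the leading arms had a median of 5.39 over these pairs. For Mir194-2 and Mir192 it was 42.7. A larger fold was found for 3 pairs, named here after their values were seen. They were miR-191-5p and miR-425-5p with 165-fold, let-7f-5p and miR-98-5p with 45.7-fold, and miR-27b-3p and miR-23b-3p with 43.0-fold. Some of the arms come from further hairpins elsewhere, as miR-194-5p does, and the pairs share libraries, so these values are a description without a test.

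**Figure D3:**
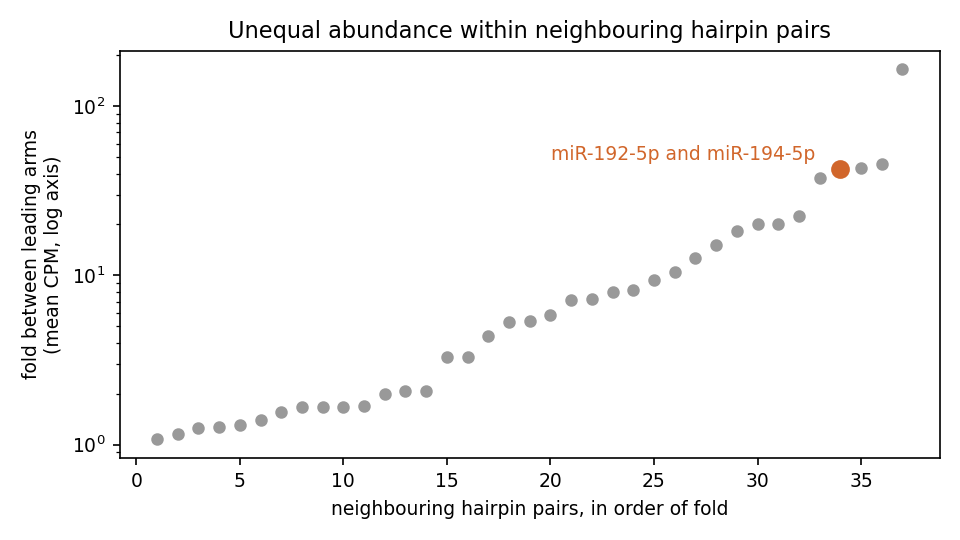
Fold between the mean CPM of the leading arms of 37 neighbouring hairpin pairs, in order of fold, on a log axis. The pair of miR-192-5p and miR-194-5p, in orange at 42.7-fold, has 3 pairs above it, and the median pair differs by 5.39-fold.

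Both measurable members were lower in replicate 2 than in replicate 1. The log2 ratio of replicate 2 to replicate 1, with 0.5 reads added to each count, was -0.86 for miR-192-5p (exact interval -0.94 to -0.79, counting error only) and -1.07 for miR-194-5p (-1.59 to -0.56). The interval of miR-194-5p includes the value of miR-192-5p. Lower values in replicate 2 were common in these libraries. Over the 323 entries whose reads in both libraries add up to 10 or more, 213 had a ratio below 0, the median ratio was -0.29, the central 90% lay between -1.87 and 1.36, and 84 entries were lower than miR-192-5p. Of the 2 members in this set, miR-194-5p was more than 2-fold lower in replicate 2, as were 22% of the 323 entries. With TMM scaling, which sets the bulk of the entries level, the median became 0.06, and the ratios were -0.51 for miR-192-5p and -0.72 for miR-194-5p. Neither member was then past 2-fold, against 13.3% of entries in that direction. The difference of the family between the replicates thus lay within the spread that the other miRs showed.

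**Figure D4:**
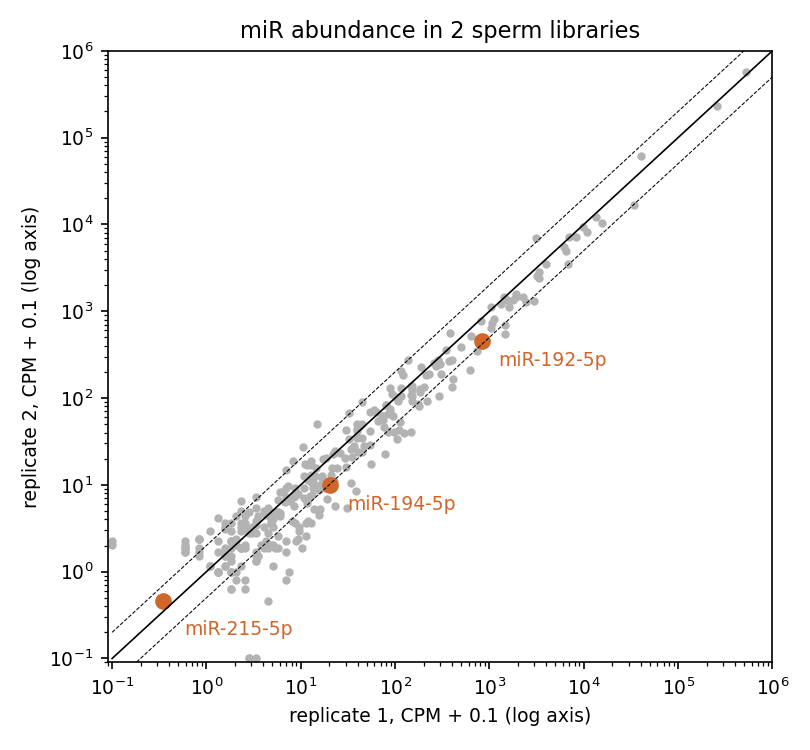
CPM + 0.1 of replicate 2 against replicate 1, on log axes, for the 323 entries with a total of 10 or more reads (grey) and for miR-192-5p, miR-194-5p and miR-215-5p (orange). The solid line marks equal values and the dashed lines 2-fold. miR-192-5p lies just inside the lower dashed line and miR-194-5p just outside it, among many grey points.

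The 5 entries nearest to miR-192-5p, by the distance of log2 CPM in the 2 libraries, were miR-200c-3p, miR-151-3p, miR-151-5p, miR-429-3p and miR-146a-5p. miR-200c-3p and miR-429-3p belong to the miR-200 family, which is known to keep cells epithelial by repressing the ZEB factors. miR-200c-3p was the closest, at a distance of 0.138, with 757 CPM in replicate 1 and 462 CPM in replicate 2. miR-429-3p had 1033 and 633 CPM, at a distance of 0.563. miR-151-3p at 0.431 and miR-151-5p at 0.432 were closer than miR-429-3p, and miR-146a-5p lay at 0.765. Likeness over 2 libraries rests on the level alone and says little about a shared pattern.

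The level of the family was set beside lists of marker miRs, which does not assign it to a tissue. Germ-cell miRs, such as miR-34c of late spermatogenesis, were read in both libraries for 11 of 19 entries, beside 378 of all 1886. They summed to 4209 CPM in replicate 1 and 1746 CPM in replicate 2, and 72.5% of their reads were miR-34c-5p. The miR-200 family of epithelium summed to 10634 and 8548 CPM, which was 12.5 and 18.3 times the sum of the miR-192, miR-194 and miR-215 family. Of these miR-200 reads, 80.8% were miR-141-3p. In a list for the digestive organs, miR-375-3p, known from pancreatic islets and gut, had 1906 and 1474 CPM. The rest of that list was at or near 0. The liver marker miR-122-5p had 2 reads in replicate 1 and none in replicate 2, and the pancreatic miR-216a, miR-216b and miR-217 and the liver and pancreas miR-802 had no read on either arm. The sum of the miR-200 family thus lay above miR-192-5p in both libraries, and so did miR-375-3p. Taken singly, only miR-141-3p and miR-429-3p of the miR-200 family lay above miR-192-5p in both libraries. miR-200c-3p did so in replicate 2 alone, and the other entries of that family were lower in both. The digestive list was split, with reads on miR-375-3p while the other listed miRs, the pancreatic ones among them, were at or near 0. That list covers no kidney miR, and the source of miR-192-5p was not tested.

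Between the replicates these lists did not move alike. The log2 ratio of replicate 2 to replicate 1 was -0.87 for the sum of the miR-192, miR-194 and miR-215 family, -0.31 for the miR-200 family, -0.37 for the digestive organs and -1.27 for the germ-cell list. The p53-induced miR-34a, miR-34b and miR-34c together gave -1.23, and miR-34b and miR-34c are also in the germ-cell list. miR-34c-5p held 83.4% of the reads of this p53-induced sum. miR-34a-5p, which is not in the germ-cell list, stood at -0.33, or 0.02 with TMM scaling. Smooth muscle and stroma, at 41332 and 62579 CPM, gave 0.60, and blood, at 3327 and 7224 CPM, gave 1.12. These 2 sums mostly show 1 entry each. miR-143-3p held 98.9% of the reads of smooth muscle and stroma, and the joint entry of miR-486a-5p and miR-486b-5p held 94.9% of those of blood. In the list for the digestive organs miR-375-3p held 99.99% of the reads, so the ratio of that list is the ratio of 1 miR. Among entries with a total of 10 or more reads, 12 of 12 in the germ-cell list and 7 of 8 in the miR-200 family had a ratio below 0. Their medians were -1.49 and -0.44. Over all 323 entries 213, or 65.9%, were below 0 on the same CPM scale, with a median of -0.29. On that scale 1 of 9 was below 0 in the blood list and 0 of 8 in smooth muscle and stroma, with medians of 1.01 and 0.56. With TMM scaling 46.4% of all entries were below 0, and the germ-cell entries all stayed below 0. In the miR-200 family both arms of miR-141 and of miR-200a then lay above 0. Both arms of miR-200b, miR-200c-3p and miR-429-3p lay below it. After TMM scaling the family stood at -0.52, the germ-cell list at -0.92 and the miR-200 family at 0.04. In bulk RNA, fewer cells of a type and less RNA per cell cannot be told apart, and the part of other cells in the level of miR-192-5p was not tested.

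**Figure D5:**
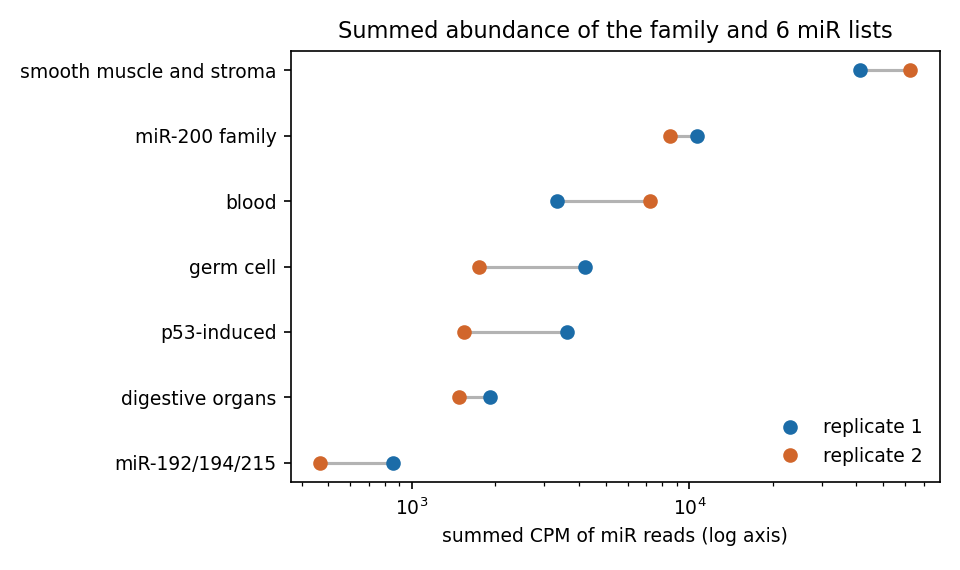
Summed CPM of miR reads for the miR-192, miR-194 and miR-215 family and 6 lists of other miRs, on a log axis, with replicate 1 in blue and replicate 2 in orange. The family, at 853 and 468 CPM, has the lowest sum of the 7 in both libraries. Blood and smooth muscle and stroma are higher in replicate 2, and the other sums are lower. The sum for the digestive organs is nearly all miR-375-3p.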

How the data were processed

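Per the labels and the study's methods, the authors trimmed reads with cutadapt 1.8.1, discarded reads under 15 nucleotides, mapped with Bowtie 1.1.2, first without mismatches to miR and piRNA sequences, and deposited raw read counts per mature miR for each library. HTSeq, mm10 and GRCm38 are named in the submitters' processing notes. Reads with added or altered end bases may be lost in such a mapping. The 5 summary entries, which held 38.1% of the reads listed in replicate 1 and 26.3% in replicate 2, were left out of the totals, and 12 entries join several names, none of them a member. CPM, shares, Wilson and exact intervals were computed with Python 3.11.15, pandas 2.3.3 and scipy 1.17.1. TMM factors came from edgeR 4.0.16 and size factors from DESeq2 1.42.0. The ratio and its interval were checked on simulated counts with counting error only. Such counts lack the wider spread between the real replicates, so the check does not extend to it. Entries named are the members, those sharing a seed, the 5 nearest to miR-192-5p, and in the lists the most abundant or defining miRs. The members and lists were chosen with earlier results of these data known.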

Additional observations from a re-analysis of the deposited data

How the results depend on the processing

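Without miR-10a-5p and miR-10b-5p in the denominator, the mean abundance rose from 660 to 3129 CPM for the summed family and from 645 to 3056 CPM for miR-192-5p, since those 2 miRs hold most miR reads. TMM, DESeq2 size factors and all reads listed as denominator moved these means by less than the SD between replicates, as did single libraries, which ranged from 468 to 853 CPM for the family and from 458 to 832 CPM for miR-192-5p. With 2 libraries such a value always lies within 1 SD, and shows no stability. The log2 ratio of replicate 2 to replicate 1 stayed negative under every scaling tried. For the family it went from -0.87 to -0.52 with TMM, -0.49 with DESeq2 size factors, -0.61 with all reads listed and -0.70 without the miR-10 entries. For miR-192-5p it went from -0.86 to -0.51, -0.49, -0.61 and -0.70. The cause was not tested. The ratio needs both libraries, so none was left out. Of the 7 entries 3 had a read in both libraries, beside 378 of all 1886 entries. With at least 5 or 10 reads or 1 CPM in each library 2 were detected, and between 3 and 4 in a single library. No paired analysis was possible because the libraries form 1 group. The depth limits statements on miR-215 and the 3p arms, which had at most 2 reads per library.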
